A study of Mus musculus with 24 samples.

Results

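Ribosome biogenesis was followed through 45 genes of mouse crypt epithelium, taken as the rows of the deposited count table whose symbol stood on a fixed list of 45, out of 43280 rows in all. All 45 symbols were found. The genes encode the machinery that makes ribosomal subunits, not the ribosomal proteins themselves. RNA was sequenced from 4 sorted small-intestinal populations of 6 male C57BL/6 mice, labelled as littermates without saying which shared a litter, carrying Lgr5-EGFP, a green fluorescent reporter of the stem cell gene Lgr5. There were 3 mice given neuregulin 1 (NRG1, a growth factor that acts through ErbB receptors), 7.5 µg into the peritoneum every 12 h for 5 days, and 3 mice given PBS, the vehicle, on the same schedule. Tissue was taken on day 6. In each treatment replicates 1 and 2 were aged 15 weeks, and replicate 3 was aged 11 weeks. Live cells without CD31 and CD45, markers of endothelial and blood cells, were sorted into Lgr5high-CD24low (labelled CBC stem cells), Lgr5med-CD24low (immediate progenitors), Lgr5low-CD24low (subsequent progenitors) and Lgr5neg-CD24neg cells (differentiated cells). Each mouse gave 1 library per population, hence 24 libraries in 8 groups of 3. All 8 groups carry the reporter, and the gates were set by reporter and CD24 brightness, so each population is a range of cells.

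Ribosomal RNA is transcribed in the nucleolus by RNA polymerase I as 1 long precursor. Small nucleolar ribonucleoproteins (snoRNPs) modify it, box C/D particles by methylation and box H/ACA particles by pseudouridylation. Processing factors then cut and fold it into the small and the large subunit, which leave for the cytoplasm. The demand is high in dividing cells, and crypt stem and progenitor cells divide daily, whereas villus-type cells have left the cycle. MYC, a transcription factor that binds the sequence CACGTG with its partner MAX, is a textbook regulator of many of these genes.

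Of the 45 genes, 38 matched the promoter table of RefSeq (GRCm38.p6), which holds the 250 bases before and the 50 bases after each start. CACGTG, which reads the same on both strands, was in the windows of 8 of the 38 genes (21.1%) and of 2187 of 27025 genes in the table (8.09%). It lay before the start only in Nop2 and Rrn3. In Ltv1, Utp20, Pes1, Mybbp1a, Tsr1 and Wdr43 it lay after the start. CATGTG, on either strand, was in 8 of the 38 (21.1%) and in 15.9% of all genes. CACGCG, on either strand, was in 11 of the 38 (28.9%) and in 10.5% of all genes. The comparison was with all genes of the table, expressed or not, and base composition was not matched. A match describes letters in a window and is not a binding site. The upstream 250 bases are shown for Gar1, the gene with the largest NRG1 difference of the set, at chr3:129831397-129831646 on the minus strand. They are shown for Nop2, a gene that fell with NRG1 in Lgr5med cells and holds 1 CACGTG, at chr6:125131633-125131882 on the plus strand. Rrn3, with 2 copies and among the flattest genes across the populations, is at chr16:13780449-13780698 on the plus strand. All run 5′ to 3′ along the gene, and capitals mark CACGTG.
Gar1: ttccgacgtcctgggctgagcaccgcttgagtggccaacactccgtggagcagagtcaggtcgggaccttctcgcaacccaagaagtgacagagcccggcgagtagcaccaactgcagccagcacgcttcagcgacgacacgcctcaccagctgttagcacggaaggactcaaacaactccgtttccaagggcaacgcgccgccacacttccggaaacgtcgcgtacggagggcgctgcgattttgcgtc
Nop2: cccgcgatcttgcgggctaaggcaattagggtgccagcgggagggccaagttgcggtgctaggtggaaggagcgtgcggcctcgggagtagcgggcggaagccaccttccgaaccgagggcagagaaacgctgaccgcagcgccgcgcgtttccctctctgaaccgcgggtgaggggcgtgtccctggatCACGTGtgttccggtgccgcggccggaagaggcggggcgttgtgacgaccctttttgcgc
Rrn3: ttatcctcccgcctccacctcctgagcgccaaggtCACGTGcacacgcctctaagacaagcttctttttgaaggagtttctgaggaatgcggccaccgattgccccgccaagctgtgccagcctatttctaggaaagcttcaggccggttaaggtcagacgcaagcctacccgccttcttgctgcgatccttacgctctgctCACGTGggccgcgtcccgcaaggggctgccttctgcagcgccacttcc
Gar1 and Nop2 held neither CATGTG nor CACGCG in the stretch shown, and neither did Rrn3.

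Total counts per library lay between 11176264 and 23343499, and mitochondrial ribosomal RNA made up 49.5% to 62.4% of them in the 6 Lgr5neg libraries and 37.6% to 47.1% in the other 18. The 45 genes together had 8206 to 108360 counts per library, and the lowest count of any of them in any library was 11. All 45 passed the filter on low counts in each comparison. Levels are given as CPM, counts divided by a library size that was scaled by the trimmed mean of M-values (TMM) over the 24 libraries. The TMM factors were 0.53 to 0.76 in Lgr5neg libraries and 1.03 to 1.31 in the others. Differences are log2 values from edgeR's quasi-likelihood test with Benjamini-Hochberg adjustment over all genes tested. Genes with an adjusted p below 0.05 are described as called. Counts at an unadjusted p under 0.05 have no share of all genes beside them, and the percentages given are of called genes. Counts called by alternative fits have no such share either. In sorted bulk RNA, fewer cells of a type and less RNA per cell cannot be told apart.

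The summed level of the genes was lowest in Lgr5neg cells and, by its mean, highest in Lgr5high cells, where it overlapped that of Lgr5med cells in both treatments. The sum in NRG1 mice was 3566 ± 114 CPM in Lgr5high, 3131 ± 375 in Lgr5med, 2468 ± 237 in Lgr5low and 748 ± 77.0 in Lgr5neg cells (SD, n = 3 each). In PBS mice it was 3817 ± 271 CPM in Lgr5high, 3254 ± 451 in Lgr5med, 2252 ± 68.0 in Lgr5low and 662 ± 32.0 in Lgr5neg cells (SD, n = 3 each). The step below Lgr5low cells was the steepest in both treatments. Npm1 and Ncl, which encode the abundant nucleolar proteins nucleophosmin and nucleolin, made up 59.8% of the sum in Lgr5high cells of NRG1 mice and 54.9% of it in PBS mice. The Lgr5high sums of all 45 genes overlapped between NRG1 (3497 to 3698 CPM) and PBS libraries (3606 to 4123 CPM). Without that pair they were 1347 to 1530 CPM in NRG1 libraries and 1605 to 1798 CPM in PBS libraries, which did not overlap. The sums without the pair were also apart in Lgr5med cells (1237 to 1396 against 1497 to 1686 CPM). They overlapped in Lgr5low (1031 to 1200 against 1146 to 1211 CPM) and Lgr5neg cells (343 to 423 against 358 to 401 CPM).

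**Figure D1:**
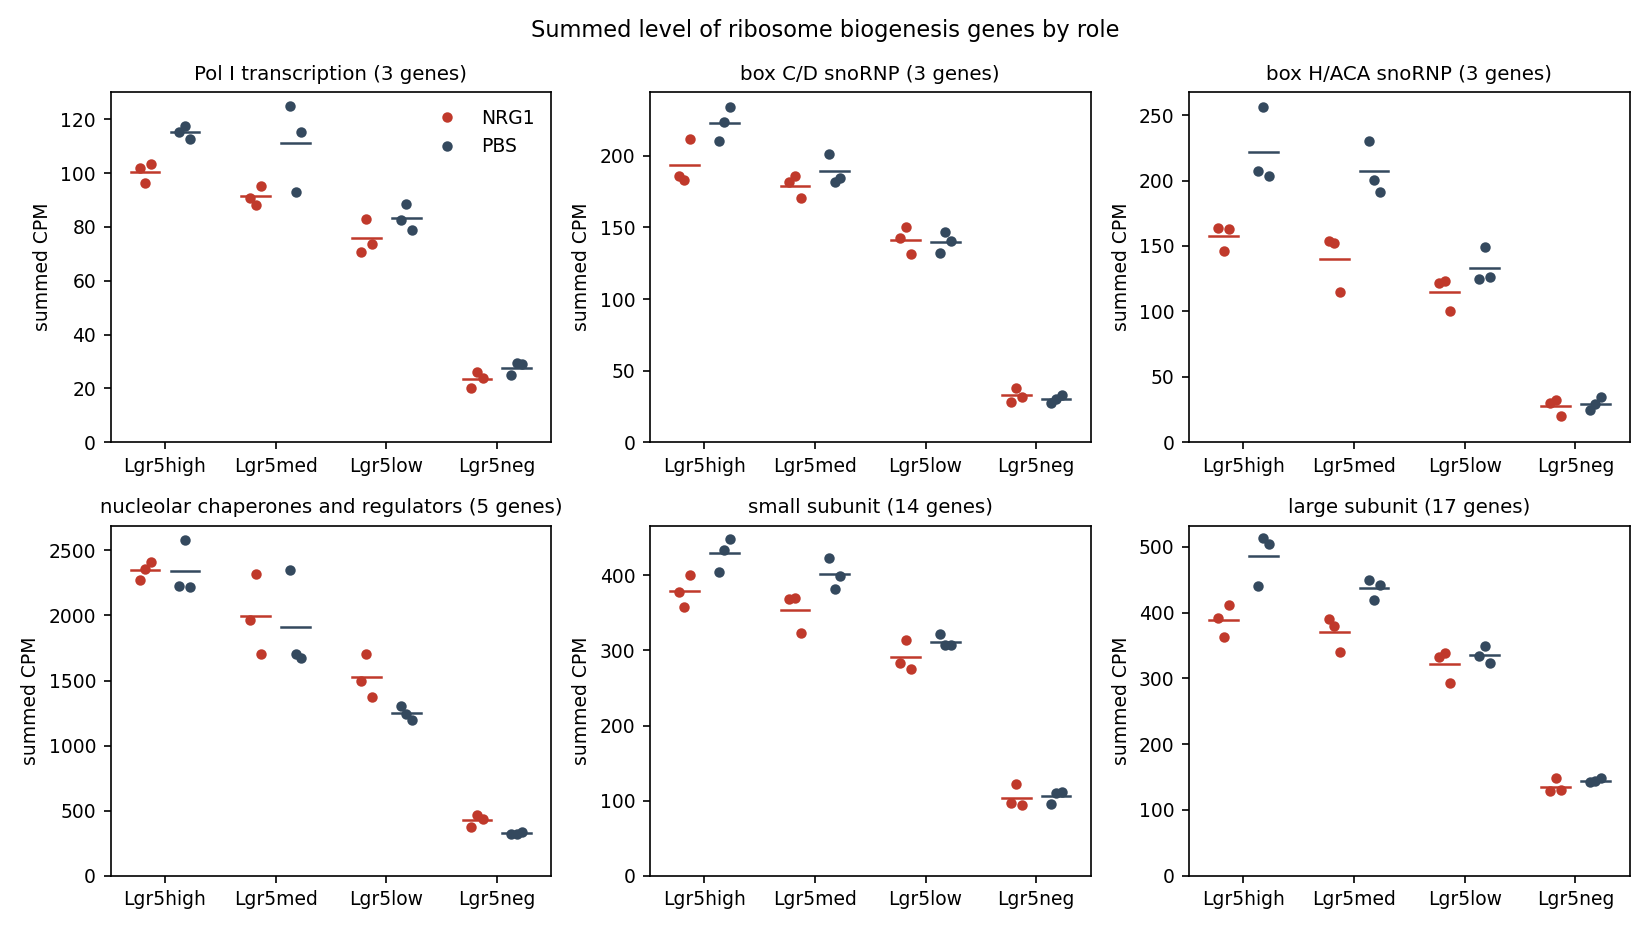
Summed CPM of the genes of each role (vertical axis, starting at 0) in the 4 populations (horizontal axis), with a point per library and a bar at the mean of 3, NRG1 left of PBS. All 6 role sums are lowest in Lgr5neg cells, and the box H/ACA sum lies at 146 to 164 CPM in Lgr5high NRG1 libraries and 203 to 256 CPM in PBS libraries.

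Per kilobase of annotated exon, Npm1 led in Lgr5high cells of PBS mice at 387 ± 7.96 CPM per kilobase, followed by Ncl at 104 ± 20.4 and Gar1 at 48.3 ± 6.21 (SD, n = 3). The lowest level per kilobase was that of Wdr12, a partner of Pes1 and Bop1 in the PeBoW complex of large subunit processing, at 2.30 ± 0.0809 (SD, n = 3). Most of the set therefore lay far below the leading pair. The length was the union of exons over all annotated transcripts of a gene, which can exceed the RNA that is made. It was 2665 bases for Npm1, 10188 for Ncl and 11955 for Wdr12, so the ranks depend on it. Before the division by length Ncl had 1063 ± 208 CPM and Npm1 had 1031 ± 21.2 CPM in these cells (SD, n = 3 each).

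In PBS mice, 44 of the 45 genes were higher in Lgr5high than in Lgr5neg cells, beside 35.4% of the 14203 genes tested. The median log2 difference of the 45 was 2.37, beside 0.09 for all genes tested. Lgr5neg libraries stood apart in mitochondrial ribosomal RNA and in scaling, and all 44 calls were kept with another scaling (RLE) and with mitochondrial rows left out. Both scalings take most genes to be alike between libraries, and 67.4% of genes were called here in either direction. Keeping the calls therefore cannot settle the scaling. All 3 RNA polymerase I genes were called, but they did not move alike. Polr1a and Polr1b, core subunits of the polymerase, differed by 3.26 (SE 0.21) and 3.27 (SE 0.21) on the log2 scale. Rrn3, the initiation factor that brings the polymerase to the ribosomal DNA, differed by 0.83 (SE 0.16, adjusted p = 0.000158). Rrn3 had 37.8, 36.1 and 30.7 CPM in Lgr5high libraries, against 18.3, 18.1 and 21.9 CPM in Lgr5neg libraries, without overlap.

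All 6 snoRNP genes were higher in Lgr5high cells. In the box C/D particle these were the scaffold proteins Nop56 (3.46, SE 0.14) and Nop58 (2.67, SE 0.14) and the methyltransferase fibrillarin, Fbl (2.60, SE 0.19). In the box H/ACA particle they were Dkc1, the pseudouridine synthase dyskerin (2.74, SE 0.19), its partner Nhp2 (2.37, SE 0.17) and Gar1. Gar1, which binds dyskerin and helps it release its product, had 77.1, 95.1 and 76.1 CPM in Lgr5high libraries, against 7.49, 5.63 and 8.55 CPM in Lgr5neg libraries (log2 difference 3.51, SE 0.18, adjusted p = 3.07e-12). The nucleolar chaperones and regulators were all called as well. Their differences ran from 1.82 for Ddx21, an RNA helicase, to 3.03 for Nolc1, a snoRNP chaperone.

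The 14 small subunit genes were all higher in Lgr5high cells, with a median log2 difference of 1.96. Utp20 (2.82, SE 0.25) and Heatr1 (2.66, SE 0.16), parts of the early small subunit processome, led them. The late factors Nob1, the endonuclease of the final 18S cut, and Ltv1, an assembly factor of the subunit's head, were at the low end with 1.41 (SE 0.17) and 0.59 (SE 0.13). Ltv1 had 34.2, 38.9 and 31.9 CPM in Lgr5high libraries, against 23.2, 24.6 and 21.5 CPM in Lgr5neg libraries (adjusted p = 0.000721). The groups did not overlap, but the step was small beside those of the other small subunit genes.

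The 17 large subunit genes were the most spread, from 0.06 to 4.57 on the log2 scale, and 16 were higher in Lgr5high cells. Rrp1b, a nucleolar protein of early large subunit particles, had 27.0, 26.7 and 32.2 CPM in Lgr5high libraries, against 0.973, 1.45 and 1.15 CPM in Lgr5neg libraries. Its log2 difference of 4.57 (SE 0.21, adjusted p = 1.04e-12) was the largest of the 45. Gnl3, the GTPase nucleostemin, had 39.9, 44.4 and 48.4 CPM in Lgr5high libraries, against 3.44, 3.86 and 3.37 CPM in Lgr5neg libraries (3.62, SE 0.16, adjusted p = 4.31e-13). Bop1, another PeBoW subunit, was the exception, with 9.89, 16.1 and 17.5 CPM in Lgr5high libraries, against 11.5, 14.9 and 15.1 CPM in Lgr5neg libraries. These values overlapped, and the log2 difference of 0.06 (SE 0.22, adjusted p = 0.823) was not called. Its PeBoW partners Pes1 (1.02, SE 0.15) and Wdr12 (3.20, SE 0.18) were both called.

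**Figure D2:**
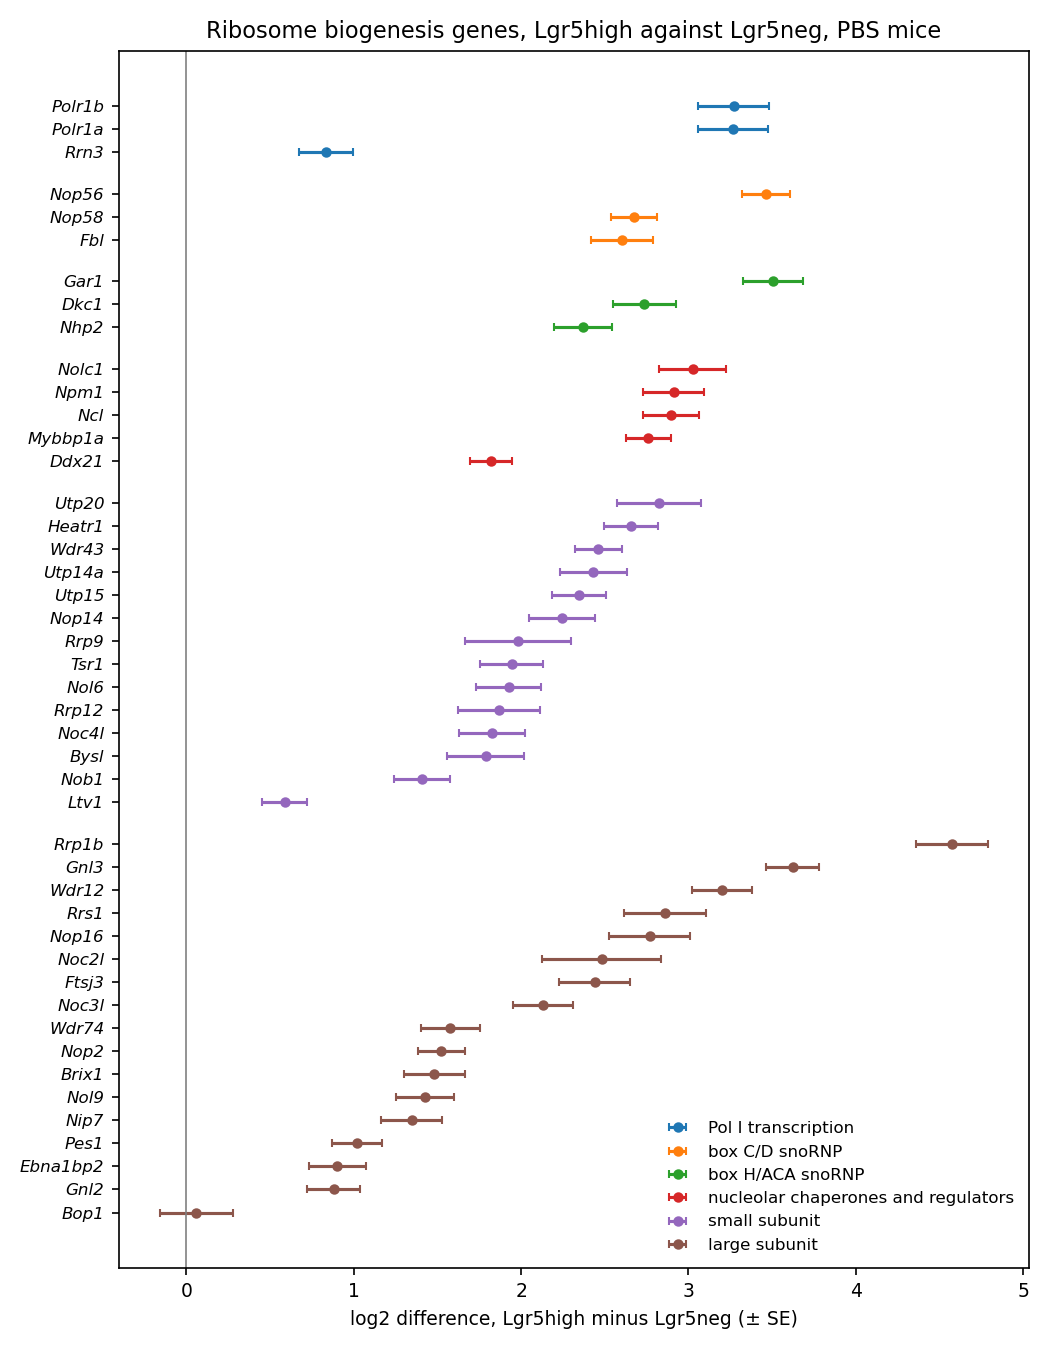
Log2 difference of Lgr5high minus Lgr5neg cells of PBS mice (horizontal axis) for each of the 45 genes (vertical axis, grouped and coloured by role), with points at the edgeR estimate and bars of 1 SE. Rrp1b lies farthest right at 4.57, and Bop1, at 0.06, is the only point whose bar crosses 0.

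Counting without strand cannot separate a gene from one on the opposite strand, and the strand setting is not given in the sources used here. Of the 45 genes, 19 overlap an opposite-strand gene in GENCODE vM21, and for 15 it is protein-coding. Bop1 (chromosome 15, 76452989 to 76477277, minus strand, GRCm38) overlaps Mroh1, which had 9.08 ± 0.404 CPM in Lgr5high and 28.0 ± 0.818 CPM in Lgr5neg cells of PBS mice (SD, n = 3 each). Whether Mroh1 reads entered the Bop1 count was not tested. Gnl3 overlaps Pbrm1, at 153 ± 9.60 CPM in Lgr5high and 62.8 ± 10.3 CPM in Lgr5neg cells of PBS mice (SD, n = 3 each). Hsf2bp, opposite Rrp1b, had at most 0.218 CPM in any library. Npm1 has processed pseudogenes that share its sequence, so its counts are uncertain to that extent.

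The same contrast in NRG1 mice gave 44 of 45 genes higher in Lgr5high than in Lgr5neg cells, beside 33.5% of all genes tested, with a median log2 difference of 2.04. Bop1 was again not called (-0.30, SE 0.21, adjusted p = 0.219). Rrp1b was again at the top (3.85, SE 0.25).

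Within the Lgr5-positive gates the gradient was shallower. Between Lgr5high and Lgr5med cells of PBS mice 0 of 45 genes were called in edgeR, beside 9.17% of all genes, and 6 had an unadjusted p under 0.05, all higher in Lgr5high. Of the 45 differences 33 were above 0 and 12 below 0, among them those of Gar1 (-0.10) and Bop1 (-0.31). DESeq2 called 2, Nop58 and Npm1. The same 2 genes were called with the mouse as a block, Nop58 at 0.37 (adjusted p = 0.0462) and Npm1 at 0.49 (adjusted p = 0.0363). Npm1 alone was called without Lgr5med PBS replicate 1 (0.72, adjusted p = 0.00686).

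Between Lgr5med and Lgr5low cells of PBS mice 11 genes were higher in Lgr5med and 0 were lower, beside 2.00% of all genes called higher. Wdr43, a small subunit processome protein, was the clearest at 0.72 (SE 0.13, adjusted p = 0.00167). The others were Gar1 (0.77), Ncl (0.77), Rrp1b (0.72), Gnl3 (0.71), Wdr74 (0.66), Mybbp1a (0.59), Dkc1 (0.58), Fbl (0.57), Nop56 (0.55) and the 28S methyltransferase gene Nop2 (0.51). Of the 45 differences, 44 were above 0. With the mouse as a block all 11 kept their calls. Nop14 (0.53, adjusted p = 0.0282), Utp14a (0.58, adjusted p = 0.0350), Nop16 (0.65, adjusted p = 0.0282) and Rrs1 (0.68, adjusted p = 0.0142) were then called higher as well. The count was 6 without Lgr5med PBS replicate 1, 18 in DESeq2 and 17 with no filter on low counts. In the 15-week-old mice alone it was 1, Wdr43.

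In Lgr5low cells of PBS mice all 45 genes stood above their Lgr5neg level by the test, beside 30.6% of all genes. The differences ran from 0.37 for Ltv1 to 3.52 for Rrp1b, with a median of 1.82. Those of Bop1 (0.51), Ltv1 (0.37) and Gnl2 (0.46), the last a nucleolar GTPase, lost their calls under some alternatives. Bop1 had its highest means in PBS mice in Lgr5low and Lgr5med cells. It had 23.5, 20.5 and 15.6 CPM in Lgr5low and 19.2, 20.1 and 14.8 CPM in Lgr5med libraries. Both overlapped the 9.89, 16.1 and 17.5 CPM of Lgr5high libraries. In NRG1 mice its means ran from 9.67 ± 1.52 CPM in Lgr5high to 11.5 ± 0.962 CPM in Lgr5neg cells (SD, n = 3 each).

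Between Lgr5high and Lgr5neg cells of PBS mice, all 10 stem cell markers were higher without overlap (sums of 3859 to 5376 against 106 to 116 CPM), as were all 10 proliferation markers (1773 to 1948 against 84.2 to 109 CPM). All 10 enterocyte markers were lower (1125 to 1585 against 44216 to 74087 CPM). Of all genes tested, 37.9% were higher and 33.1% lower without overlap in this comparison. Of 15 immune markers, 12 were lower in Lgr5high cells and 1 was higher, with sums of 47.1 to 87.3 CPM against 119.6 to 371 CPM, although CD45-positive cells had been gated out. Paneth markers were higher in Lgr5high cells for 7 of 8 (1838 to 3198 against 298 to 669 CPM), and goblet markers were lower for 5 of 7 (390.3 to 1915 against 5762 to 8179 CPM). Goblet markers were highest in Lgr5low cells, at 15674 to 29846 CPM in PBS libraries. The part of these cells in the differences of the 45 genes was not tested.

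In Lgr5high cells 5 of the 45 genes (11.1%) were lower with NRG1 and 0 were higher, beside 4.15% of 13322 genes called lower and 3.18% called higher. The 5 were Rrs1, Gar1, Rrp1b, Gnl3 and Fbl. Of the 45 log2 differences, 41 were below 0, with a median of -0.25 beside 0.01 for all genes tested. For 23 genes (51.1%) all 3 NRG1 libraries lay below all 3 PBS libraries, beside 14.0% of all genes.

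Rrs1, which helps place the 5S particle in the large subunit, had 11.6, 8.92 and 11.8 CPM in NRG1 libraries, against 15.3, 25.2 and 18.8 CPM in PBS libraries of Lgr5high cells. The groups did not overlap, and the log2 difference was -0.86 (SE 0.18, adjusted p = 0.00928). Gar1 (chromosome 3, 129824912 to 129831396, minus strand, GRCm38), whose upstream sequence is printed above, had 50.8, 40.9 and 48.8 CPM in NRG1 libraries, against 77.1, 95.1 and 76.1 CPM in PBS libraries. That was 1.75-fold lower (log2 difference -0.81, SE 0.13, adjusted p = 0.00119). Rrp1b had 16.1, 19.5 and 19.5 CPM in NRG1 libraries, against 27.0, 26.7 and 32.2 CPM in PBS libraries (-0.63, SE 0.14, adjusted p = 0.0109). The steepest gene of the gradient was thus also lower with NRG1 in the population where it was highest.

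Gnl3 (-0.61, SE 0.12, adjusted p = 0.00583) and Fbl (-0.45, SE 0.13, adjusted p = 0.0487) completed the called genes of Lgr5high cells. By role, 3 of 17 large subunit genes, 1 of 3 box C/D and 1 of 3 box H/ACA genes were lower. Of the 14 small subunit genes 0 were called, and their differences ran from -0.55 (Rrp12, a subunit export factor) to 0.15 (Nop14). Polr1a (-0.16), Polr1b (-0.25) and Rrn3 (-0.18) were not called. Gar1 and Gnl3 kept their calls under all 13 alternatives, which included leaving out each library in turn. Rrs1 lost its call without PBS replicate 2 and Rrp1b lost its call without NRG1 replicate 1 and in the 15-week-old mice alone, while that of Fbl was lost under 7 alternatives. The count was 3 when either of those libraries was left out, and 12, all lower, with no filter on low counts. It was 9 in DESeq2, 1 of them, Npm1, higher.

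In Lgr5med cells 10 genes (22.2%) were lower with NRG1 and 0 were higher, beside 5.79% of 13394 genes called lower and 3.76% called higher. The median log2 difference of the 45 was -0.23, beside 0.01 for all genes, and 37 were below 0. All 3 NRG1 libraries lay below all PBS libraries for 14 genes (31.1%), beside 16.7% of all genes. Called genes shared with Lgr5high cells were Fbl, Gar1, Rrp1b and Rrs1, 4 of the 5 called there (80.0%) and 4 of the 10 called here (40.0%).

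Gar1 had 48.1, 42.6 and 31.9 CPM in NRG1 libraries, against 101 (replicate 1), 85.1 and 79.7 CPM in PBS libraries of Lgr5med cells. It was 2.14-fold lower (log2 difference -1.10, SE 0.15, adjusted p = 0.000940), the largest difference of any of the 45 genes with NRG1. Rrs1 had 10.3, 9.46 and 9.79 CPM in NRG1 libraries, against 17.6, 17.6 and 17.5 CPM in PBS libraries (-0.82, SE 0.15, adjusted p = 0.00456). Bop1 had 14.0, 9.95 and 8.73 CPM in NRG1 libraries, against 19.2, 20.1 and 14.8 CPM in PBS libraries (-0.71, SE 0.19, adjusted p = 0.0347). None of these 3 genes overlapped between the treatments, although the lowest PBS value of Bop1 was close to its highest NRG1 value.

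The remaining called genes of Lgr5med cells were Rrp12 (-0.68), Fbl (-0.54), Wdr74 (-0.54), Nop2 (-0.50), Ltv1 (-0.49), Rrp1b (-0.49) and Nolc1 (-0.45), with adjusted p from 0.0255 to 0.0455. They comprised 5 of 17 large subunit genes with Bop1 and Rrs1, 2 of 14 small subunit genes, 1 of 5 chaperones and regulators and 1 of 3 genes of each snoRNP. Only Gar1 and Rrs1 kept their calls under all 13 alternatives. The count fell to 3 without NRG1 replicate 2 or NRG1 replicate 3, to 2 without PBS replicate 2 or PBS replicate 3, and to 4 without PBS replicate 1, where Npm1 was higher (0.76, adjusted p = 0.0279). In the 15-week-old mice alone it was 2.

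In Lgr5low cells 0 of 45 genes were called with NRG1 in edgeR without a block, beside 0.443% of all genes, and 8 had an unadjusted p under 0.05, 2 higher and 6 lower. The median log2 difference was -0.06, beside -0.00072 for all genes. Same-numbered libraries deviated together in this population, and a fit that blocked on the replicate number called 3 genes: Gar1 (-0.64, adjusted p = 0.00767), Bop1 (-0.84, adjusted p = 0.00668) and Npm1 (0.56, adjusted p = 0.0244). DESeq2 called the same 3. The 0.443% belongs to the fit without a block, and the shares of all genes under the block and in DESeq2 are not given here. Gar1 had 38.1, 33.0 and 28.2 CPM in NRG1 libraries, against 54.9, 57.5 and 43.3 CPM in PBS libraries (adjusted p = 0.108 without the block). Bop1 had 13.8, 10.5 and 8.86 CPM in NRG1 libraries, against 23.5, 20.5 and 15.6 CPM in PBS libraries (adjusted p = 0.108 without the block). Npm1 had 772, 869.9 and 717 CPM in NRG1 libraries, against 612, 499 and 496 CPM in PBS libraries (adjusted p = 0.150 without the block). For each of the 3 genes the treatments did not overlap, but they were picked by their small p, which favours such separation. Of all 45 genes, 10 (22.2%) were lower without overlap, beside 9.68% of all genes. Higher without overlap were 2, beside 8.997% of all genes.

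In Lgr5neg cells 0 of 45 genes were called with NRG1 in edgeR without a block, beside 0.328% of all genes, and 5 had an unadjusted p under 0.05, 1 higher and 4 lower. The median log2 difference was -0.0092, beside 0.01 for all genes. With the replicate number as a block (same-numbered libraries deviated together here too) 1 gene was called, Npm1 (0.74, adjusted p = 5.49e-05). DESeq2 called Npm1 alone. The 0.328% belongs to the fit without a block, and the shares of all genes in these other fits are not given here. Npm1 had 189, 241 and 250.9 CPM in NRG1 libraries, against 135, 121 and 152 CPM in PBS libraries (SE 0.17, adjusted p = 0.0901 without the block). Nip7, a pre-rRNA processing factor, had 3.20, 4.47 and 2.87 CPM in NRG1 libraries, against 7.04, 5.55 and 6.58 CPM in PBS libraries (-0.85, SE 0.30, adjusted p = 0.314). Rrn3 had 13.1, 14.0 and 14.7 CPM in NRG1 libraries, against 18.3, 18.1 and 21.9 CPM in PBS libraries (-0.47, SE 0.18, adjusted p = 0.366). All 3 genes were without overlap between the treatments, but they were picked by their small p, which favours such separation. Of all 45 genes, 6 (13.3%) were lower without overlap, beside 8.003% of all genes. Higher without overlap was 1, beside 7.94% of all genes.

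**Figure D3:**
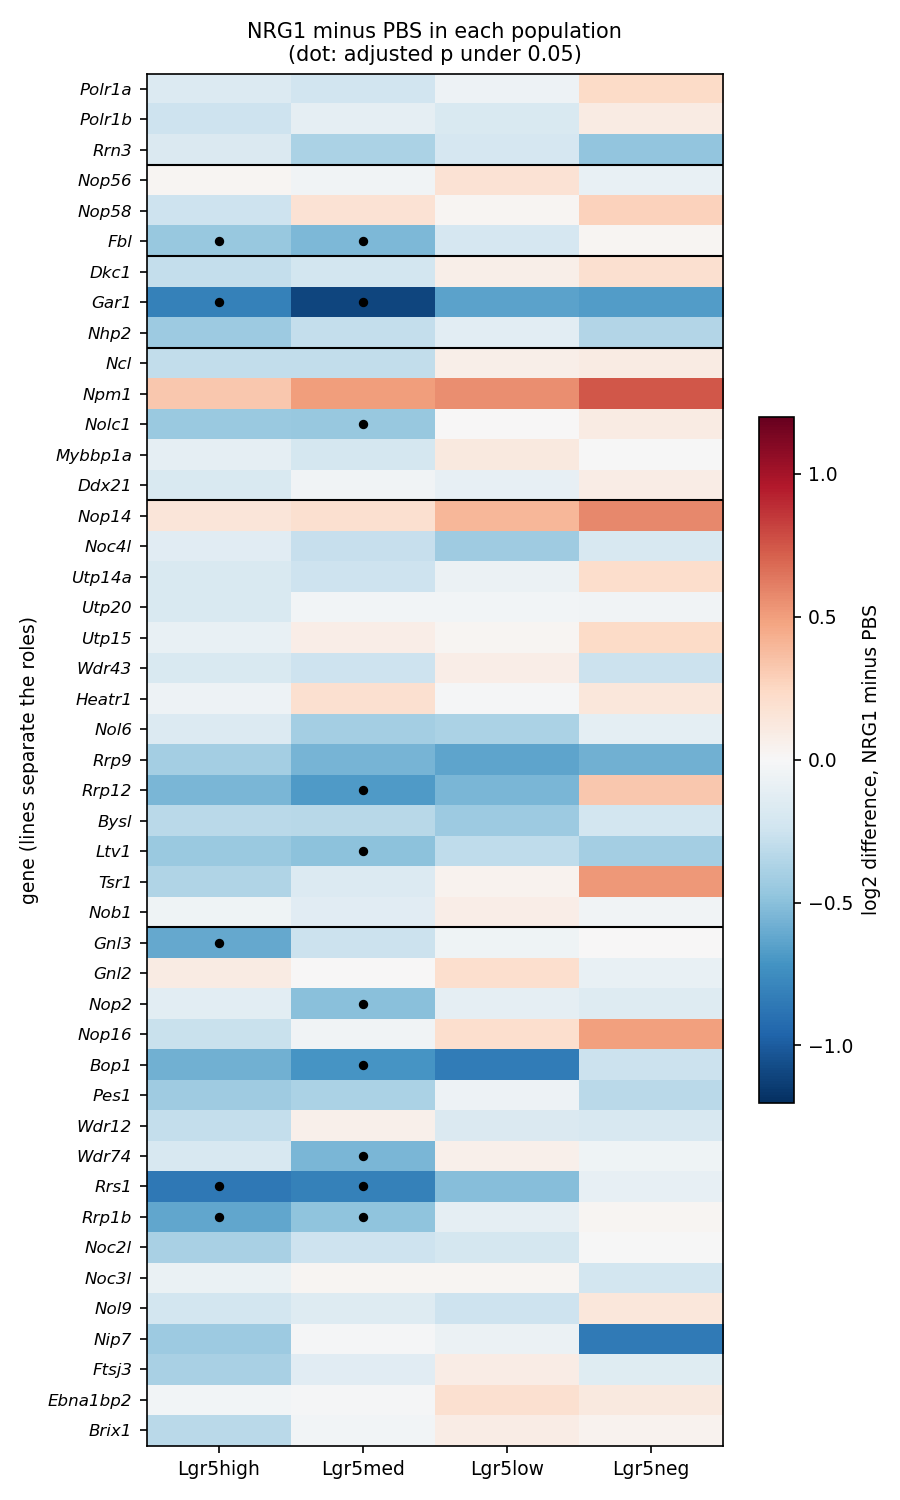
Log2 difference of NRG1 minus PBS (colour, blue below 0 and red above 0) for the 45 genes (rows, lines between roles) in the 4 populations (columns); a dot marks an adjusted p under 0.05 in edgeR without a block. Dots stand in the Lgr5high column (5) and the Lgr5med column (10), all on blue, and the Npm1 row is red in all 4 columns.

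Npm1 went the other way from most of the set. With NRG1 it had 1228, 1332 and 1268 CPM in Lgr5high libraries, against 1011, 1028 and 1053 CPM with PBS (log2 difference 0.32, SE 0.12, adjusted p = 0.112), without overlap. In Lgr5med cells it had 1022, 1277 and 841 CPM in NRG1 libraries, against 987, 645 and 609 CPM in PBS libraries (0.51, SE 0.21, adjusted p = 0.143). There the treatments overlapped, through PBS replicate 1, and Npm1 was called higher without that library and with no filter on low counts (adjusted p = 0.00799). Of the 45 genes, Npm1 and Nop14 alone were above 0 in all 4 populations, and 15 were below 0 in all 4. The share of all genes with such signs was not counted.

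Gar1 and Ltv1 were lower with NRG1 without overlap in each of the 4 populations, as were 1.00% of 15045 genes. The 4 populations came from the same 6 mice, so they are not separate evidence. Ltv1 had 22.8 to 30.5 CPM in NRG1 and 31.9 to 38.9 CPM in PBS libraries of Lgr5high cells. It passed the test in Lgr5med cells, and its log2 differences were -0.45 in Lgr5high, -0.49 in Lgr5med, -0.30 in Lgr5low and -0.41 in Lgr5neg cells. Of the 45 genes 0 were higher without overlap in each population, beside 0.711% of all genes.

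**Figure D4:**
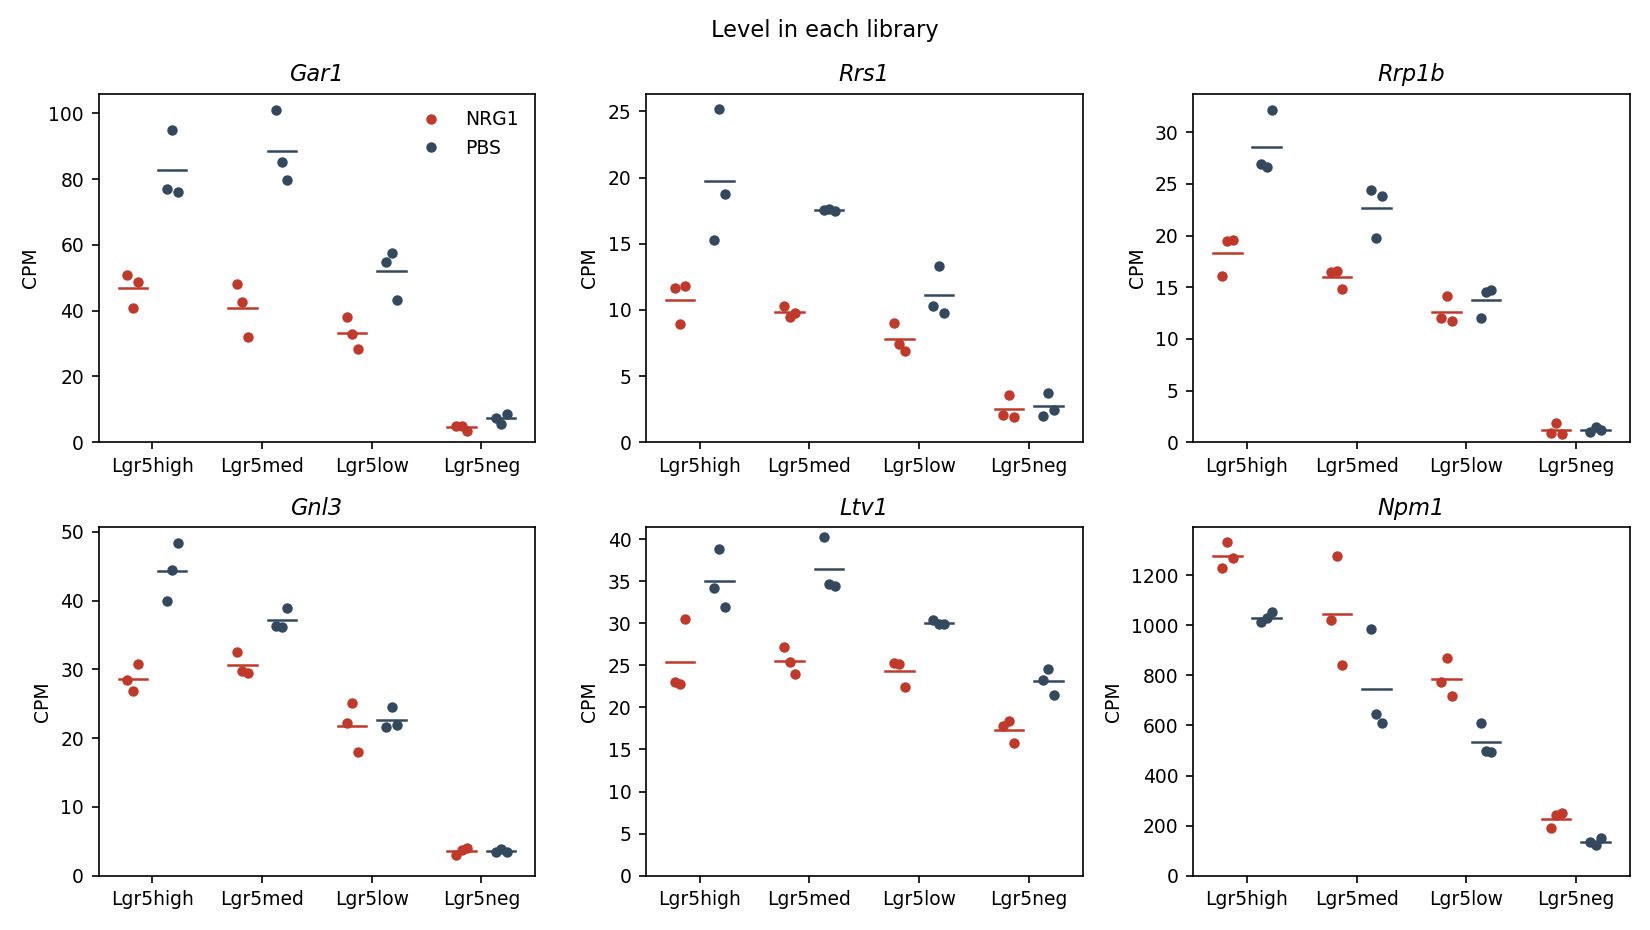
CPM (vertical axis, starting at 0) of 6 genes in the 4 populations, with a point per library and a bar at the mean of 3, NRG1 left of PBS. Gar1 and Ltv1 lie lower with NRG1 in each population without overlap, and Npm1 lies higher with overlap in Lgr5med cells.

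Whether the NRG1 response differed between populations was tested as an interaction over the 24 libraries. For Lgr5high minus Lgr5neg cells 0 of 45 genes were called, beside 0.0532% of 15045 genes, and 7 had an unadjusted p under 0.05, all lower. The percentages here are of called genes, and the share of all genes with an unadjusted p under 0.05 was not counted. For Lgr5med minus Lgr5neg cells 0 were called, beside 0.0465% of all genes, and 7 had an unadjusted p under 0.05. For Lgr5low minus Lgr5neg cells (0.0199% of all genes) and Lgr5high minus Lgr5low cells (0% of all genes) 0 were called as well, and 2 each had an unadjusted p under 0.05. DESeq2 also called 0 in each of the 4 tests. A different response of the populations was therefore not shown, and the median interaction of Lgr5high minus Lgr5neg cells was -0.25 beside -0.02 for all genes.

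Cell type markers moved with the treatment too. In Lgr5high cells 7 of 10 proliferation markers were higher and 3 lower with NRG1 without overlap (sums of 2298 to 2993 against 1773 to 1948 CPM). In the same cells 3 of 8 Paneth markers were lower (1149 to 1895 against 1838 to 3198 CPM). The immune sum there was 16.7 to 42.9 CPM with NRG1 and 47.1 to 87.3 CPM with PBS, with 1 of 15 markers higher and 1 lower, and Cd3g and Cd7 at 0 in all NRG1 libraries. In Lgr5med cells 7 of 10 enterocyte markers were lower and 1 was higher (1139 to 1767 against 2117 to 2540.2 CPM), and 6 of 10 proliferation markers were higher and 3 lower (1684 to 2044 against 1533 to 1590.0 CPM). In Lgr5low cells 6 of 10 stem cell markers were higher (1096 to 1616 against 692 to 747 CPM), while 2 of 10 proliferation markers were higher and 3 lower. In Lgr5neg cells 6 of 7 goblet markers were lower (1435 to 4603 against 5762 to 8179 CPM), and 2 of 10 stem cell markers were lower (sums of 67.4 to 92.4 against 106 to 116 CPM). The part of these shifts in the differences of the 45 genes was not tested.

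Myc, which is not among the 45, had 143, 145 and 154 CPM in NRG1 libraries, against 234, 194 and 225 CPM in PBS libraries of Lgr5high cells. In Lgr5med cells it had 86.1 to 125 CPM with NRG1 and 113 to 193 CPM with PBS, and in Lgr5low cells 61.8 to 89.6 CPM with NRG1 and 72.1 to 89.4 CPM with PBS. In Lgr5neg cells it had 3.53 to 5.52 CPM with NRG1 and 3.74 to 7.40 CPM with PBS. Its level was thus lower with NRG1 without overlap in Lgr5high cells, and the treatments overlapped in the other 3 populations.

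A second list of 127 ribosome biogenesis genes outside the 45 also had more members lower than higher with NRG1 in Lgr5high and Lgr5med cells. In Lgr5high cells 13 were lower (10.2%) and 1 was higher (0.787%), beside 4.15% and 3.18% of all genes. The largest falls were Nop10 (-0.99, adjusted p = 0.00120), a core protein of the box H/ACA particle beside Gar1, and Exosc4 (-0.85, adjusted p = 0.0132), a subunit of the RNA exosome. Exosc8, another exosome subunit, was the gene that rose (0.46, adjusted p = 0.0419). In Lgr5med cells 14 were lower (11.0%) and 3 were higher (2.36%), beside 5.79% and 3.76% of all genes. The falls were led by Mphosph6 (-1.01, adjusted p = 0.00312), an exosome cofactor, and Rrp1 (-0.91, adjusted p = 0.0125), the paralog of Rrp1b. Rpp30, a protein of RNase P and RNase MRP (0.81, adjusted p = 0.0369), and Nsa2, a large subunit assembly factor (0.67, adjusted p = 0.00943), led those that rose. In Lgr5low cells 0 were called in edgeR (2 in DESeq2, 3 with the replicate block), beside 0.443% of all genes. In Lgr5neg cells 1 of 123 tested (0.813%) was higher, Nsa2 (1.01, adjusted p = 0.0277), beside 0.151% of all genes. That count was 4 with the replicate block and 2 in DESeq2. It was 0 in the 15-week-old mice alone, without NRG1 replicate 2 or 3, and without any 1 of the PBS replicates. Without single libraries the count of 14 in Lgr5high cells was 9 (NRG1 replicate 1), 5 (NRG1 replicate 2) or 6 (PBS replicate 2), and the count of 17 in Lgr5med cells was 11 (NRG1 replicate 3), 6 (PBS replicate 2) or 8 (PBS replicate 3). The list's median log2 difference was -0.17 in Lgr5high, -0.06 in Lgr5med, 0.03 in Lgr5low and 0.05 in Lgr5neg cells.

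Between the annotated start and end of 7 of the 45 genes lie 21 annotated snoRNA genes on the same strand, which are guides of the modifying particles. Their counts were too low to compare between groups. Summed over the 24 libraries they ran from 0 to 146 per snoRNA gene, the highest being those of Gm22771 (146) and Snord91a (125), both inside Tsr1.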

How the data were processed

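Raw counts per gene symbol for 24 libraries were deposited by the authors. Per the labels' protocols, libraries came from 15 ng RNA and gave 76-nt single reads. Reads were aligned with STAR to GRCm38 and counted with featureCounts, per the submitters' processing notes. Versions, strand setting and the treatment of multi-mapped reads are not given in the sources used here. Each column matched 1 sample's labels. Replicates were different mice, and the 4 populations of a mouse are not independent.

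Counts were filtered per comparison with filterByExpr (minimum count 10, minimum total 15), scaled by TMM and tested in edgeR 4.0.16 (R 4.3.3) with the robust quasi-likelihood test and Benjamini-Hochberg adjustment. NRG1 and PBS were compared within each population, populations within PBS or NRG1 mice, and interactions over all 24 libraries. Printed standard errors are the absolute log2 difference over the square root of F. Alternatives were DESeq2 1.42.0, RLE size factors, no filter, mitochondrial rows left out, a replicate or mouse block, 15-week-old mice only, 1 model of all libraries, and each library left out. The scripts were tested on simulated data. The 45 genes, the second gene list and the marker lists were chosen with earlier results of these data known.

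Values in every library were given for, in each NRG1 comparison, the 3 called genes with the largest change (with fewer than 3 calls, the 3 smallest p), and between Lgr5high and Lgr5neg cells of PBS mice for the 3 largest and 3 smallest differences. Npm1 in Lgr5high and Lgr5med cells, and Myc, were added after their values were seen. Of the second list, the 2 called genes with the largest change in each direction were named. Replicate numbers were checked for pairing by correlating deviations from group means: in Lgr5low cells the same-numbered pairs gave 0.1728, 0.1306 and 0.1712 and in Lgr5neg cells 0.1798, 0.1667 and 0.1022, all over 0.1, so the block stands beside those results. Across populations the pairing is by mouse. Annotation was GENCODE vM21.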

Additional observations from a re-analysis of the deposited data

How the results depend on the processing

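Over 7425 alternative values of the 45 genes' differences, 0 changed sign among called values, 68 gained a call and 103 lost one. The 44 calls between Lgr5high and Lgr5neg cells of PBS mice were all kept under the 13 alternatives, as were 43 of 44 in NRG1 mice, 42 of 45 between Lgr5low and Lgr5neg cells, 1 of 11 between Lgr5med and Lgr5low cells, and with NRG1 2 of 5 in Lgr5high and 2 of 10 in Lgr5med cells. For counts that moved, the cause was not tested. With NRG1 in Lgr5high cells 5 genes became 9 in DESeq2 and 12 with no filter, and 3 to 7 with 1 library left out. In Lgr5med cells 10 became 2 in the 15-week-old mice and 2 to 8 with 1 library left out. In Lgr5low cells 0 became 3 in DESeq2, with no filter and with the replicate block, and stayed 0 with 1 library left out. In Lgr5neg cells 0 became 1 in DESeq2, with no filter and with the replicate block, 2 with all 24 libraries in 1 model, and 0 to 1 with 1 library left out. Between Lgr5high and Lgr5med cells 0 became 2 in DESeq2 and with the mouse as replicate block, 1 with no filter, and 0 to 1 with 1 library left out. Between Lgr5med and Lgr5low cells 11 became 18 in DESeq2, 17 with no filter, 1 in the 15-week-old mice, and 6 to 11 with 1 library left out. Interaction counts were 0 under each alternative. Same-numbered NRG1 and PBS libraries correlated at 0.0846, 0.2269 and 0.0695 in Lgr5high cells and at 0.2068, 0.0701 and 0.1548 in Lgr5med cells, short of 0.1 in some pairs, so the numbers were not taken as pairs there. Each Lgr5med library correlated best with its own number, and in Lgr5high cells PBS replicate 3 did not. Replicate 3 is the 11-week-old mouse of each treatment. The replicate block gave 6 calls in Lgr5high and 13 in Lgr5med cells, where it added Npm1 as higher (0.52, adjusted p = 0.0414) and Rrn3 (-0.37, adjusted p = 0.0467) and Pes1 (-0.40, adjusted p = 0.0438) as lower. Alternatives for the second list were added after the data were seen, and its calls ranged from 5 to 22 in Lgr5high, 6 to 33 (with the replicate block) in Lgr5med, 0 to 3 in Lgr5low and 0 to 4 in Lgr5neg cells. The median difference with NRG1 lay between -0.32 and -0.20 in Lgr5high, -0.27 and -0.15 in Lgr5med, -0.11 and -0.0058 in Lgr5low and -0.15 and 0.09 in Lgr5neg cells, where its sign changed. Groups of 3 libraries, and low levels in Lgr5neg cells, limit what could be called.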
